A study of Homo sapiens with 4 samples.

Results

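Regions of H3K27ac that lay near a gene without touching its start were taken from a table of the A375 melanoma line. They were the regions for which no line of the authors' deposited table gave a distance of 0, whose width was under 8000 bases, and whose smallest distance to a gene was from 1 to 10000 bases. The rule kept 13998 of the 91107 distinct regions, or 15.4%, and they were assigned to 8778 genes. These regions were selected on 2 measured values, their distance and their width, and both come from the authors' peaks, so distance and width are given only as a description. Fold changes were not used. A375 is an established human melanoma cell line. It had been given 1 mM octanoate, a medium-chain fatty acid, in 2 libraries and the vehicle isopropanol in 2 others, both for 48 hours, in DMEM with fetal bovine serum. Chromatin was precipitated with an antibody against histone H3 acetylated at lysine 27. All 4 libraries came from this 1 line, and the labels do not say whether libraries of a group were separate cultures, so the p-values may measure technical spread.

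Every line of the table gives 1 level, 1 log2 fold change with an error, and p-values, with no value of a single library. The depth of a library is unknown, the replicate spread could not be had, and each ± below is the standard error of the authors' model. The numerator of the fold change is not named, so changes are called positive or negative. A region with an adjusted p-value under 0.05 is called below. An adjusted p-value of 1 stands in the table for regions of low level and was read as not computed, and regions with a smaller value are described as tested.

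Enhancers are stretches of DNA that bind transcription factors and raise transcription of a gene on the same chromosome, whatever their orientation. Active enhancers and active promoters both carry H3K27ac, which is set by the acetyltransferases EP300 and CREBBP, removed by histone deacetylases and read by bromodomain proteins. Nearness to a gene is a common way to pair an enhancer with a target, but an enhancer may skip the nearest gene, and the pairing in the table is the authors' assignment by distance.

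The label of enhancer did not hold for every region. Of the 13998 regions, 832 (5.94%) contained the start of at least 1 RefSeq gene of GRCh38.p14, a patch release of the build that the submitters' processing notes name as hg38. In 602 of them it was another start of the assigned gene, in 41 the start of another protein-coding gene and in 189 only that of a long noncoding RNA. A RefSeq start lay in 81.8% of the regions with a distance of 0. The whole set is called proximal regions below for this reason.

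Sequence was taken from RefSeq (GRCh38.p14) and only before such starts. The 250 bases before 4 of them are printed, because they lie in regions called in the authors' deposited table and outside the body of every protein-coding gene. Capitals mark matches to the motifs searched, and lower case is everything else. Both protein-coding starts are rich in the dinucleotide CG, with 21 copies before TMEM59L and 37 before LRFN1, and neither holds a match. The starts of LOC105375185, in the region assigned to FAM126A, and of LINC02410, in the region assigned to NTN4, have 0 and 3 copies.
TMEM59L, chr19:18612620-18612869, plus strand: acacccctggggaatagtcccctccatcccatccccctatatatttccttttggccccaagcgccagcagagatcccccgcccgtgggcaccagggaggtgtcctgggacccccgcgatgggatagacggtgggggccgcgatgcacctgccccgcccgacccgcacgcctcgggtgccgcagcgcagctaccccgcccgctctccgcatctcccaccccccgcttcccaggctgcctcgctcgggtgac
LRFN1, chr19:39320864-39321113, minus strand: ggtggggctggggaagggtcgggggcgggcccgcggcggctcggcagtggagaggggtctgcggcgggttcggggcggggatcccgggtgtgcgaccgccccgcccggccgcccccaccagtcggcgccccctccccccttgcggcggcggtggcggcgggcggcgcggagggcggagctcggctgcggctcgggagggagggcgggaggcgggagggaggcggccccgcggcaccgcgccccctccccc
LOC105375185, chr7:23021433-23021682, plus strand: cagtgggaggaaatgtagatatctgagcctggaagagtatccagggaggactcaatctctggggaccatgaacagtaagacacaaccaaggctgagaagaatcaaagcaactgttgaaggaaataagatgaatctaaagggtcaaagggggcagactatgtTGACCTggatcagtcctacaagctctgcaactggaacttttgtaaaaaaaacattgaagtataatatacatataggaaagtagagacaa
LINC02410, chr12:95802847-95803096, plus strand: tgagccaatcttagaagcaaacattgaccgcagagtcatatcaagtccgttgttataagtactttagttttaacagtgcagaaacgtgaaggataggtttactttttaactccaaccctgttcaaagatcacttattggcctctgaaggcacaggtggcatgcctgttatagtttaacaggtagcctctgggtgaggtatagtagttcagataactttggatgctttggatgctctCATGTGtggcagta
The match at LOC105375185 is the reverse complement of AGGTCA, the element bound by nuclear receptors, and that at LINC02410 is the E-box CATGTG. A match is a string of letters and not a site shown to be bound.

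Over all 825 windows of 250 bases that lay whole inside proximal regions, the median GC content was 64.8% and the median ratio of observed to expected CG was 0.72. The 34943 windows of all RefSeq starts had 58.0% and 0.56, and the 13670 inside regions with a distance of 0 had 66.0% and 0.84. Motifs were searched on both strands and counted separately, and overlaps between different motifs were allowed. TGANTCA, the motif of AP-1, stood in 6.55% of the windows in proximal regions, 6.59% of all windows and 3.61% of those in regions at a distance of 0. CCGGAAG, a motif of ETS factors, stood in 7.88%, 8.48% and 16.1% in the same order. GGAATG, bound by TEAD factors, stood in 10.9%, 11.9% and 8.81%, and AGGTCA in 10.7%, 12.1% and 7.75%. Of the E-boxes, CACGTG stood in 8.24%, 6.32% and 8.57%, and CATGTG in 6.06% of the windows in proximal regions and 9.45% of all windows. The SOX motif ACAAAG stood in 11.8%, 13.7% and 8.62%, and ACAATG in 6.79%, 9.30% and 4.40%. Among the windows in proximal regions, those before long noncoding RNAs held TGANTCA in 9.96% of 261 and those before protein-coding genes in 4.96% of 564. Windows of 1 gene may overlap and are not independent.

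The proximal regions also held 19 of 1562 hairpins of microRNAs, small RNAs that lower the output of messenger RNAs through a seed at bases 2 to 8. Well-studied ones are printed with the seed in capitals, to show which small RNA genes the set covers. The 4 seeds differ from each other.
hsa-miR-210-3p: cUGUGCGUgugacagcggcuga
hsa-miR-25-3p: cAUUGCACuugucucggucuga
hsa-miR-106b-5p: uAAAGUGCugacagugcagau
hsa-miR-130b-3p: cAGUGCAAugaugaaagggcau
The region over MIR210, the hypoxia-induced microRNA gene, had a log2 fold change of 0.19 ± 0.34 at a mean level of 36.5 in the authors' deposited table. That over both MIR25 and MIR106B, in the MCM7 gene, had -0.20 ± 0.35 at 25.7, and that over MIR130B had 0.27 ± 0.26 at 69.8 in the authors' deposited table. Of the 18 regions with a hairpin, 15 were tested and 0 called by the authors' DESeq2 comparison, and 1, over MIR10398 near TFEB, had an unadjusted p-value under 0.05 (0.82 ± 0.32). The same comparison called 1.67% of all tested regions. At an unadjusted p-value under 0.05, 17.9% of all tested regions were positive and 0.475% negative. With 15 tested regions, these counts give little ground for a difference from the background.

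Most proximal regions were small and weak. Widths ran from 200 to 7992 bases with a median of 642, and mean levels in the authors' deposited table from 0.776 to 313 normalized units with a median of 9.14. Regions at a distance of 0 had a median level of 83.7 and a median width of 3186 bases, and the 39439 regions under 8000 bases wide that lay over 10000 and up to 100000 bases away had 10.0 and 727. Proximal regions had an adjusted p-value from a level of 18.45 upwards, and 4248 proximal regions (30.3%) were tested, against 36436 of all regions. None of the 5985 proximal regions under 500 bases wide was tested, and 572 of the 574 that were 4000 bases or wider were.

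The highest levels stood beside TPM4, FXYD3, KLHL21, KDM5B and EGLN1, and none of these 5 was called. The TPM4 region (chromosome 19, 16075821 to 16080675), in the gene of a tropomyosin that binds actin, had a level of 313 and a log2 fold change of 0.28 ± 0.21 in the authors' deposited table. Those of FXYD3, a regulator of the sodium pump, and of KLHL21, an adaptor of the cullin ubiquitin ligases, had levels of 297 and 293 and fold changes of 0.20 ± 0.22 and 0.29 ± 0.22 in the authors' deposited table. The regions of KDM5B, a histone H3 lysine 4 demethylase, and EGLN1, the oxygen-sensing hydroxylase of HIF proteins, had levels of 285 and 276 and fold changes of 0.25 ± 0.21 and 0.40 ± 0.21 there. All 5 contained a RefSeq start, that of a long noncoding RNA at FXYD3 and another start of the assigned gene at the other 4.

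Proximal regions lay more often inside their gene than before it. A RefSeq start of the assigned gene was at hand for 10880 of them, and for 77.4% the distance to it came within 200 bases of the distance in the authors' deposited table. By the strand of the gene, 6779 (62.3%) lay downstream of the start and 4101 upstream. The midpoint of 8874 regions (63.4%) fell in the body of a protein-coding gene. Exons and introns were not analysed here.

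Upstream regions had the larger median fold change. At levels from 10 upwards, the median log2 fold change by the authors' deposited table was 0.39 (quartiles 0.15 and 0.60) upstream and 0.29 (0.06 and 0.52) downstream. Beyond 2000 bases from the start the medians were 0.38 for 1675 upstream and 0.26 for 2480 downstream regions of the authors' deposited table. The gap narrowed with level. At levels from 10 to 20 the medians were 0.40 and 0.20, from 20 to 50 they were 0.40 and 0.33, from 50 to 100 they were 0.37 and 0.34, and at 100 or more they were 0.37 and 0.36. Regions are not replicates, and with no value per library this difference was not tested. Calls made up 2.21% of tested upstream and 1.94% of tested downstream regions in the authors' deposited table, beside 1.67% of all tested regions.

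**Figure D1:**
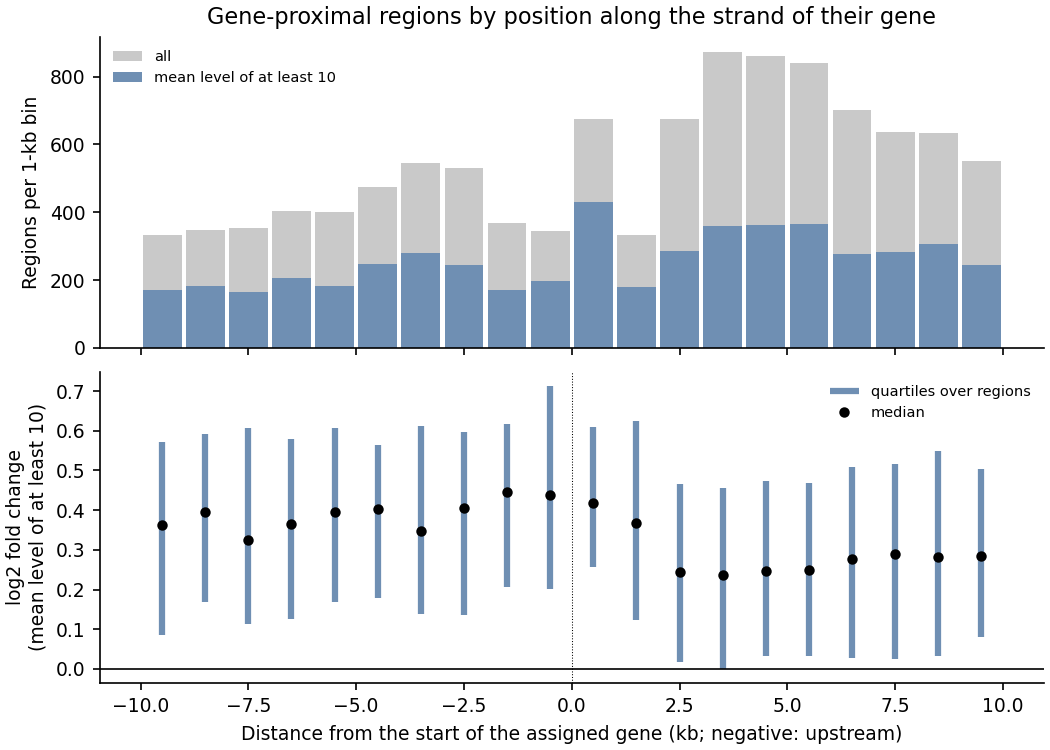
Proximal regions in bins of 1 kb along the strand of the assigned gene, with the number of regions above (grey, all; blue, mean level of at least 10) and the median log2 fold change (points) with quartiles over regions (bars) below. Medians from 2 to 10 kb downstream lie between 0.24 and 0.29, and those upstream between 0.33 and 0.45.

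Distance alone showed a similar step. The 810 regions of level 10 or more at 1 to 1000 bases had a median of 0.43 (log2) in the authors' deposited table, with 93.0% positive. Above that and up to 2000 bases the median was 0.41, then up to 5000 bases 0.31 and up to 10000 bases 0.32, with 83.5%, 81.3% and 81.9% positive in the authors' deposited table. At levels of 100 or more, the 4 medians were 0.34, 0.37, 0.32 and 0.37. The share called among tested regions was 1.78%, 2.08%, 1.67% and 2.04% from the nearest to the farthest bin of the authors' deposited table. Over all tested regions it was 1.67%.

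The 6621 proximal regions at levels from 10 upwards were mostly positive. Their median by the authors' deposited table was a log2 fold change of 0.34 (quartiles 0.10 and 0.57), a little above the 0.32 of the 50472 such regions of the whole table. Of the proximal ones 83.2% were positive, with a 95% Wilson interval of 82.2 to 84.0% that covers variation between regions only, against 84.1% of all. The medians of regions at a distance of 0 and of those over 10000 and up to 100000 bases away were 0.36 and 0.31 in the authors' deposited table. The order against regions at a distance of 0 turned with level. From levels of 10 to 20 these had 0.62 and proximal regions 0.30, and at 100 or more they had 0.31 and proximal regions 0.36.

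Called proximal regions numbered 80 in the authors' deposited table, 1.88% of those tested, beside 1.67% of all tested regions. Of these, 79 were positive, where positive calls were 1.65% of all tested regions, and 1 was negative, where negative calls were 0.0192%. The shares lie close to the background and are no result about proximal regions as such. At an unadjusted p-value under 0.05 there were 835 positive and 9 negative proximal regions in the authors' deposited table, beside 17.9% and 0.475% of all tested regions. The calls began at an absolute fold change of 0.71, with 1.06 as the median of the positive ones, and 48 reached at least 1, where 0.876% of all tested regions were calls of that size. Over all 80 the median level was 52.2 and the median width 3291 bases. After the median of all tested regions, 0.32, was subtracted, 6 proximal regions passed, where 0.124% of all tested regions did. Of these, 5 were positive (background 0.0521%) and 1 negative (background 0.0714%). They lay beside PYY, C1QTNF8, NFE2L1, FABP3, CCL20 and PDZRN3.

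**Figure D2:**
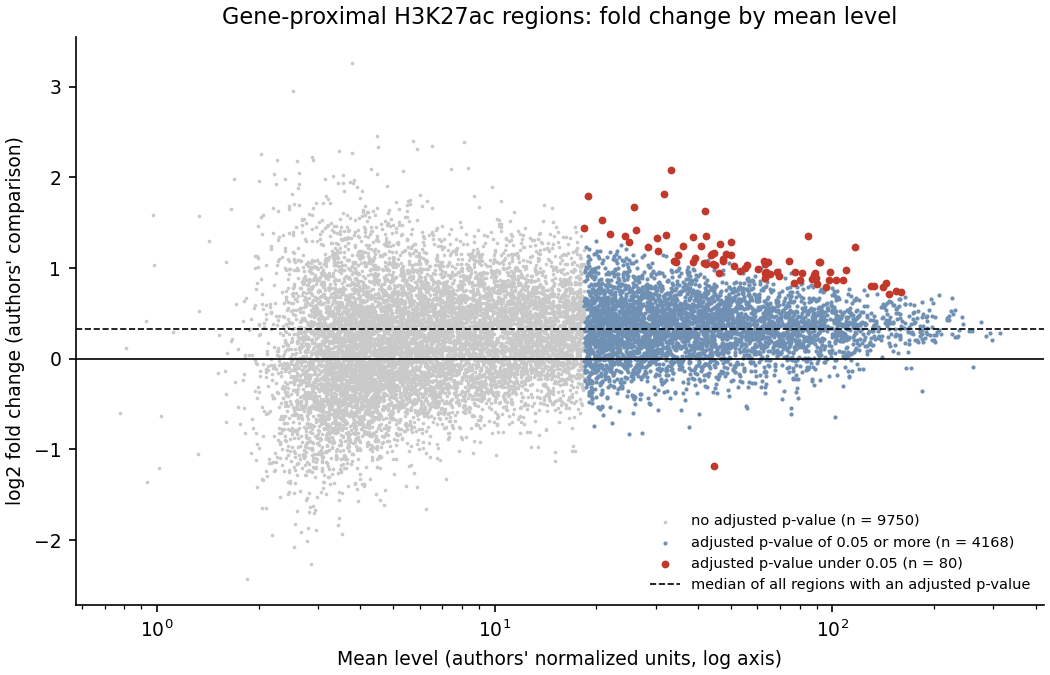
Log2 fold change of each proximal region against its mean level (log axis) in the authors' comparison, with grey points for regions with no adjusted p-value, blue for tested and red for called ones. The dashed line is the median of all tested regions, 0.32, and 1 of the 80 red points lies below 0.

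The share called was higher in wider regions in the authors' deposited table. It was 0.649% of tested regions at 500 to under 1000 bases, 1.01% up to 2000, 1.96% up to 4000 and 4.90% up to 8000. Of all tested regions of any width and distance, 1.67% were called. For levels of at least 10 the median fold change was nearly flat over the same widths, at 0.35, 0.34, 0.33 and 0.35. Over tested regions only, as for the shares, the medians were 0.45, 0.37, 0.33 and 0.35 in the authors' deposited table. The median standard error of tested regions fell from 0.40 to 0.24. Regions over 10000 and up to 100000 bases away showed the same order, from 0.338% to 5.38%. Regions at a distance of 0 did not, with 1.41%, 0.951%, 0.677% and 0.861%.

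The 10 calls with the largest fold changes ranged from 1.37 to 2.08 and lay beside 10 genes. The region of PYY, the gut hormone peptide YY (chromosome 17, 44001478 to 44003542), lay 928 bases from the start and inside the gene, and had 2.08 ± 0.33 at a level of 33.4 in the authors' deposited table, where its adjusted p-value was 4.30e-06. The C1QTNF8 region (chromosome 16, 1089469 to 1091358), in the gene of a secreted protein of the C1q and TNF-related family, had 1.81 ± 0.37 at 31.7 there (p-value after adjustment 0.000970). Neither gene had a region over its start in the table.

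Of the 10, 4 lay beside genes of transcription factors. The LHX6 region (chromosome 9, 122227791 to 122229207), at a LIM homeobox factor of interneurons, had 1.79 ± 0.48 at a level of 18.9 in the authors' deposited table, where its adjusted p-value was 0.0241, and it held a RefSeq start of LHX6. The MYPOP region (chromosome 19, 45905704 to 45907267), upstream of a Myb-related factor, had 1.68 ± 0.36 at 25.9 in the authors' deposited table (p-value after adjustment 0.00224). The NFE2L1 region (chromosome 17, 48054732 to 48056867), inside the gene of a factor that drives proteasome genes, had 1.63 ± 0.32 at 42.1 in the authors' deposited table (p-value after adjustment 0.000518). The MNX1 region (chromosome 7, 156999825 to 157000940), at a homeobox factor of motor neurons and the pancreas, had 1.38 ± 0.40 at 22.0 there (p-value after adjustment 0.0417).

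The 4 others lay beside genes of varied function. The region of PTPRU, a receptor tyrosine phosphatase (chromosome 1, 29236535 to 29237747), lay 20 bases from the start and had 1.53 ± 0.45 at 20.7 in the authors' deposited table, where its adjusted p-value was 0.0449. That of BCAN, the brain proteoglycan brevican (chromosome 1, 156631785 to 156632853), lay 9095 bases upstream and had 1.44 ± 0.42 at 18.5 in the authors' deposited table (p-value after adjustment 0.0428). The region of TMEM59L, a transmembrane protein gene (chromosome 19, 18612150 to 18613347), whose upstream sequence is printed above, had 1.42 ± 0.40 at 26.2 in the authors' deposited table (p-value after adjustment 0.0311). The region 7635 bases inside UNC13A, a gene of synaptic vesicle priming (chromosome 19, 17679463 to 17680731), had 1.37 ± 0.34 at 32.1 there (p-value after adjustment 0.0111).

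The only negative call was the region in the body of PDZRN3, the gene of a ubiquitin ligase with PDZ domains (chromosome 3, 73435958 to 73440349), which had -1.18 ± 0.28 at a level of 44.6 in the authors' deposited table, where its adjusted p-value was 0.00901. The smallest positive calls were the regions of LYRM1 (0.71 ± 0.21), the p53 inhibitor MDM4 (0.74 ± 0.22), the taurine transporter SLC6A6 (0.75 ± 0.22) and the actin regulator FMNL1 (0.79 ± 0.22) in the authors' deposited table. Their levels were high for proximal regions, from 141 to 160. Apart from these 15 and the calls of FABP3 and ACSL5, described with their gene list, 63 calls had fold changes from 0.79 to 1.36 and levels from 24.3 to 145 in the authors' deposited table.

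By assigned gene, most calls stood alone. Counted by the nearest gene, the 80 lay beside 78 genes, and GPR4, a proton-sensing receptor, and PDE4A, a cyclic AMP phosphodiesterase, had 2 each. Calls under different names could still be neighbours, as at SSTR5 (chromosome 16, 1082144 to 1083766) and C1QTNF8 (1089469 to 1091358). GPR4, OPA3, PDE4A and SSTR5 were chosen after their values were seen. The GPR4 regions had 1.35 ± 0.37 and 1.14 ± 0.28 in the authors' deposited table. Both were also listed with OPA3, at 8834 and 2558 bases, against 8830 and 2554 for GPR4, so the pairing with GPR4 rests on a very small difference. The PDE4A regions lay on both sides of the start the authors used, at distances of 99 and -1489 bases, with 1.06 ± 0.32 and 1.06 ± 0.27 there. The largest number of proximal regions for 1 gene was 7, reached by DOCK2, NCMAP and RPS3, with 0 calls by the authors' DESeq2 comparison and 2, 2 and 1 tested regions. Fold changes ran from -0.31 to 0.75 at DOCK2, from -1.10 to 0.33 at NCMAP and from -1.41 to 0.66 at RPS3 in the authors' deposited table.

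Each proximal region was next set beside the region over the start of the same gene, taking the one with the highest level. A start region was listed for the gene of 9360 proximal regions, and both regions had a level of at least 10 in 3948 pairs from 3131 genes. The start region was the stronger one in most, with a median level of 102 against 23.2 in the authors' deposited table, and the proximal region was higher in 455 pairs. The median fold change was 0.28 in the proximal and 0.35 in the start regions of the authors' deposited table, and the median difference within pairs was -0.10 (95% interval over pairs -0.11 to -0.08). Pairs of the same gene share a start region, so pairs are not independent and this interval covers variation between pairs only. Start regions were positive in 98.0% of the pairs and proximal ones in 79.6%. Across pairs, which share their libraries, Pearson's r was 0.35 and Spearman's rho 0.33.

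Beside the 39 called proximal regions in these pairs, the start regions were all positive and mostly smaller in fold change. The median was 0.56 at the start and 0.96 at the called region in the authors' deposited table, a gap that the choice of calls enlarges. In 5 pairs the start had the larger fold change, and in 2, at UNC13A and ADGRE2, the start region was itself called. At UNC13A the start region had 2.03 ± 0.27, above the 1.37 of the region inside the gene, and at NFE2L1 it had 0.32 ± 0.20, below 1.63, in the authors' deposited table. At MYPOP, MNX1 and TMEM59L the start regions had 0.70 ± 0.25, 0.53 ± 0.34 and 1.54 ± 0.47 in the authors' deposited table.

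**Figure D3:**
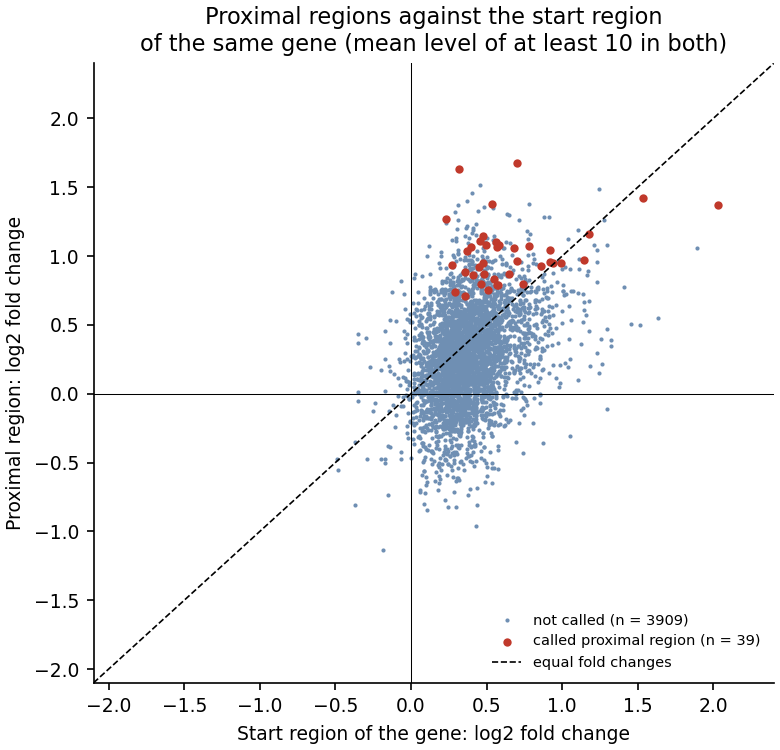
Log2 fold change of proximal regions (vertical axis) against that of the start region of the same gene (horizontal axis) for pairs with a mean level of at least 10 in both, with called proximal regions in red. The dashed line marks equal fold changes, and 5 of the 39 red points lie below it.

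**Figure D4:**
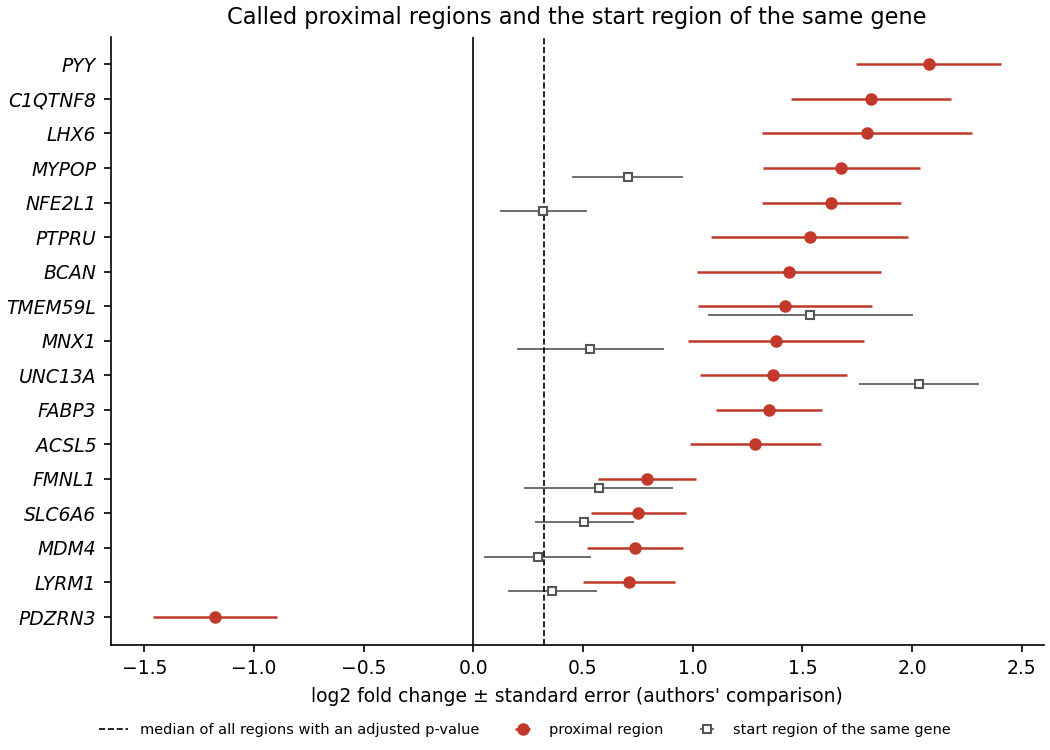
Log2 fold change with the authors' standard error for 17 called proximal regions, those with the largest and smallest fold changes and those of the gene lists (red circles) and for the start region of the same gene where the table lists one (open squares). The start region lies above the proximal one at UNC13A and TMEM59L and below it at the 7 other genes that have both.

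Genes with no region at a distance of 0 in the table, called genes with no start region, were taken as a separate group. Some proximal regions of such genes held a RefSeq start of the gene, as at LHX6, KDM5B and EGLN1. Genes with no start region accounted for 4638 proximal regions (33.1%), for 96.3% of those within 1000 bases of a start and for 24.5% of those beyond 5000. Of 1218 such genes with a region within 1000 bases, 90 had one on each side of the start. At levels from 10 upwards, the median log2 fold change of proximal regions in the authors' deposited table was 0.41 where the gene had no start region and 0.28 where it had one. From levels of 10 to 20 the medians were 0.47 and 0.21, and at 100 or more they were 0.34 and 0.37, so the order turned among the strongest regions. Each group held 40 calls in the authors' deposited table, 2.32% of the tested regions without and 1.59% of those with a start region, beside 1.67% of all tested regions. This order turned too at levels of 100 or more, with 1 call among 167 regions (0.599%) without and 10 among 225 (4.44%) with a start region.

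The lineage of the line could be checked only at genes with a listed region. Regions over the starts of SOX10, PMEL and MITF, which mark melanocytes, had levels of 774, 269 and 98.4 in the authors' deposited table, while no region over the start of MLANA, TYR, DCT or TYRP1 was listed. None was listed over the starts of the keratinocyte genes KRT5, KRT14 and TP63 or the blood genes PTPRC, SPI1 and CD3E, although regions assigned to PTPRC reached 408 and proximal ones at KRT5 and KRT14 reached 55.8 and 38.7. Of the liver genes, APOA1 had a start region at 9.80, HNF4A had none and ALB had no region at all.

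Genes of fatty acid oxidation and PPAR signalling, the pathway that burns fatty acids such as octanoate, had 2 calls, and the 8 other gene lists had 0. Proximal regions lay beside 20 of its 40 genes. Of 42 such regions 14 were tested and 2 called, and 7 had a positive and 0 a negative fold change at an unadjusted p-value under 0.05 in the authors' deposited table. Of all tested regions 1.67% were called, and 17.9% were positive and 0.475% negative at that p-value, which is the background for each list. The 19 with a level of at least 10 had a median of 0.61, beside 0.34 for all proximal regions and 0.32 for all regions of the authors' deposited table. The list is small, the lists were chosen with earlier results of these data known, and this difference was not tested. The other lists had from 5 to 21 tested regions each, so 0 calls in each of them lies near the background.

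The called region of FABP3, the fatty acid-binding protein of heart and muscle, lay upstream of the gene (chromosome 1, 31379444 to 31384806) and had 1.35 ± 0.24 at a level of 84.8 in the authors' deposited table, where its adjusted p-value was 0.000113. That of ACSL5, which couples long-chain fatty acids to coenzyme A, lay inside the gene (chromosome 10, 112382182 to 112384927) and had 1.29 ± 0.30 at 50.3 there (p-value after adjustment 0.00651). A further pair of ACSL5 regions had 0.83 ± 0.31 at 44.7 and 1.39 ± 0.46 at 13.7 in the authors' deposited table, the second with no adjusted p-value. All 3 ACSL5 regions at a level of 10 or more were thus positive.

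Other regions of this list were positive without a call. CREB3L3, a factor of the fasting liver, had 0.95 ± 0.30 (0.0703 after adjustment) in the authors' deposited table. RXRA, the partner receptor of the PPARs, had 0.95 ± 0.33, 0.49 ± 0.32 and 0.78 ± 0.39 there. The first 2 RXRA regions lay on opposite sides of the start, at distances of 437 and -256 bases, with no region over the start itself. Lower values stood beside PPARG (0.42 ± 0.38), PPARGC1A (0.38 ± 0.40), PDK4 (0.34 ± 0.33) and UCP2 (0.22 ± 0.35), and the 1 negative value beside FABP5 (-0.15 ± 0.39), in the authors' deposited table.

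Genes of the integrated stress response, which ATF4 turns on when amino acids run short or proteins misfold, had 5 tested proximal regions, of which 0 were called and 3 were positive at an unadjusted p-value under 0.05 by the authors' DESeq2 comparison, where 1.67% and 17.9% of all tested regions were. So few regions give little ground for either count. TRIB3, a pseudokinase induced by ATF4, had 0.74 ± 0.23 (adjusted p-value 0.0546) at a level of 154 in the authors' deposited table. CEBPB, a bZIP factor, had 0.93 ± 0.32 (adjusted p-value 0.0979) and SESN2, a leucine sensor, 0.80 ± 0.34 (adjusted p-value 0.190) there. The start regions of TRIB3 and of CHAC1, which degrades glutathione, had 0.90 ± 0.24 and 0.92 ± 0.23 in the authors' deposited table, both called, while the CHAC1 region 9854 bases upstream had 0.15 ± 0.27. Those of CEBPB, SESN2 and MTHFD2 had 0.44 ± 0.22, 0.50 ± 0.24 and 0.36 ± 0.23 in the authors' deposited table and were not called. The 8 regions with a level of at least 10 were all positive, with a median of 0.62.

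Matrix and adhesion genes had the lowest median of the 9 lists, 0.07 over 23 regions with a level of at least 10 in the authors' deposited table. Of 19 tested regions 0 were called, and 4 were positive and 1 negative at an unadjusted p-value under 0.05 by the authors' DESeq2 comparison. The called and positive counts lie near the background of 1.67% and 17.9% of all tested regions. The 1 negative region of 19 lies above the background of 0.475%, but so small a count gives little ground. The positive side held collagen VI, with COL6A3 at 0.96 ± 0.32 and COL6A1 at 0.65 ± 0.23, the integrin subunit ITGB1 at 0.84 ± 0.35 and the laminin subunit LAMB1 at 0.46 ± 0.23 in the authors' deposited table. The negative one lay upstream of TGFBI, a secreted matrix protein, at -0.61 ± 0.26 (adjusted p-value 0.185). Further TGFBI regions had 0.05 ± 0.28 and 0.18 ± 0.46, and the start region 0.31 ± 0.31, in the authors' deposited table. Regions of 1 gene differed in sign at COL1A1, the main chain of collagen I, with 0.41 ± 0.32, -0.42 ± 0.34 and -0.01 ± 0.27 in the authors' deposited table.

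Genes of the dedifferentiated melanoma state, AP-1 and TEAD had 21 tested regions with 0 calls, and 4 were positive at an unadjusted p-value under 0.05 by the authors' DESeq2 comparison, near the background of 17.9%. Of these, 1 lay beside the matrix protein gene TNC, at 0.52 ± 0.22 in the authors' deposited table. The YAP target ANKRD1 had -0.32 ± 0.26 there. The median of the list was 0.36 over 28 regions.

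The melanocyte list had 12 tested regions, 0 calls and 1 positive region at an unadjusted p-value under 0.05 by the authors' DESeq2 comparison, beside TFAP2A, a factor of the neural crest, at 0.95 ± 0.40. This TFAP2A region had a level of 19.9 and an adjusted p-value of 0.184 by that comparison. A stronger TFAP2A region, at a level of 46.5, had 0.25 ± 0.29. PAX3, which activates MITF, had 0.25 ± 0.27 and GPNMB, a melanosome glycoprotein, -0.19 ± 0.30 in the authors' deposited table. Its median was 0.25.

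In the 4 other lists no tested region had an unadjusted p-value under 0.05 by the authors' DESeq2 comparison, and 0 were called. The medians at a level of at least 10 in the authors' deposited table were 0.18 for sterol and fatty acid synthesis (8 tested), 0.42 for MAPK output (8), 0.23 for histone acetylation (9) and 0.29 for glycolysis and hypoxia (9). Fatty acid synthase, FASN, had 0.12 ± 0.30, and the ETS factors ETV4 and ETV5 had 0.40 ± 0.24 and -0.09 ± 0.24 there. The acetyltransferase CREBBP had -0.07 ± 0.36, and PKM and LDHA, enzymes of glycolysis, had 0.32 ± 0.22 and 0.37 ± 0.25.

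**Figure D5:**
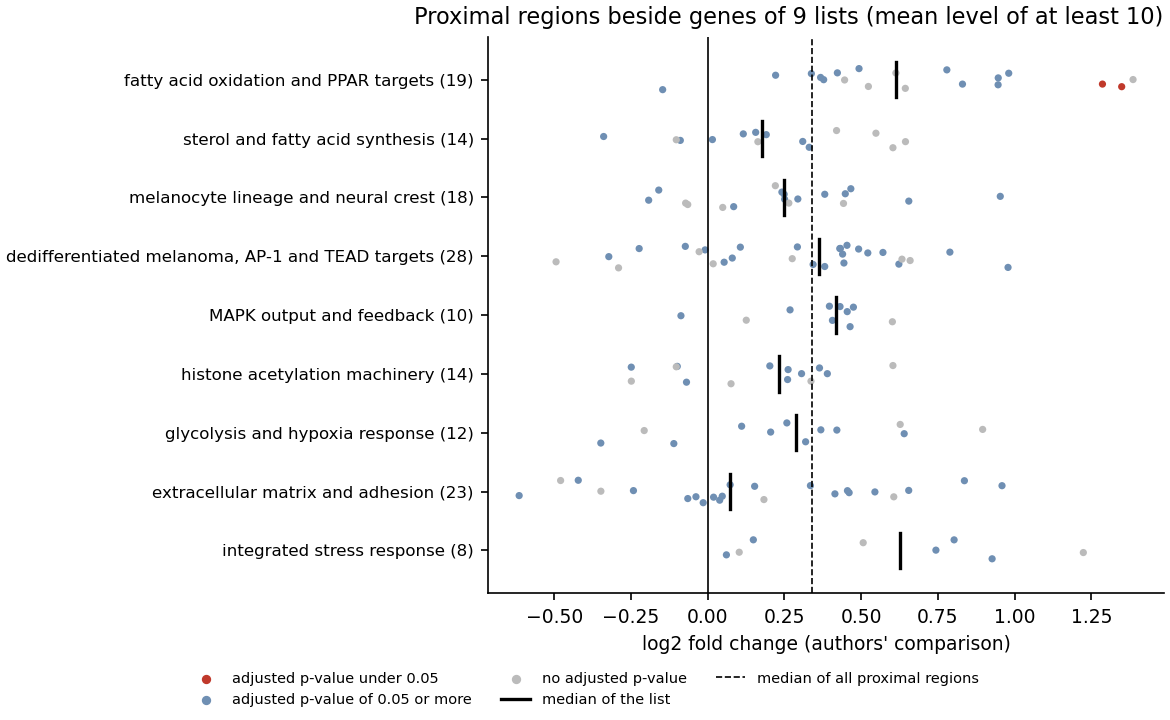
Log2 fold change of proximal regions with a mean level of at least 10 in each of the 9 gene lists, from the authors' comparison, with 1 point per region. The lists differ in median from 0.07 for matrix and adhesion to 0.62 for the integrated stress response, and both calls stand in the fatty acid oxidation list.

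The limits of the rule cut through a continuum. Just inside 10000 bases lay regions of HOXD1, ZNF496 and DR1 with 0.28 ± 0.43, 0.32 ± 0.28 and -0.76 ± 1.24 in the authors' deposited table. Just outside lay those of HECTD2, SMU1 and EBF3 with -0.11 ± 0.36, 1.09 ± 1.11 and 0.00 ± 0.23. The regions of DR1 and SMU1 had low levels, 1.92 and 2.88, and were not tested. Just under 8000 bases wide were regions of GIPC1, LIMK1 and EHD4 with 0.38, 0.21 and 0.24, and just over it those of DOCK5 and PTPRA with 0.56 and 0.21.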

How the data were processed

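H3K27ac ChIP-seq of 2 octanoate and 2 vehicle libraries was analysed from 1 deposited table of 95312 lines, which hold 91107 distinct regions. The submitters' processing notes name Trim Galore, cutadapt, FastQC, Bowtie2, Picard, MACS2, bedtools 2.29.1, featureCounts and DESeq2, and build hg38, without their settings. Per the file headers, the authors gave each region a mean normalized signal, a log2 fold change with its standard error, a Wald statistic (a score), a p-value and an adjusted p-value, a gene and a distance. Whether peaks were called on pooled libraries is not given in the sources used here. The table holds 0 columns of single libraries, so depth is unknown and no test was run here on samples: calls are the authors' DESeq2 results, and a count test could not be repeated.

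Trailing suffixes of region names were removed and repeated lines merged. Medians used regions with a mean level of at least 10. Centring subtracted the median fold change of all tested regions, recomputed Wald p-values and adjusted them by the Benjamini-Hochberg method over all tested regions. Intervals of medians are from order statistics and those of shares from the Wilson method, at 95%, over regions. Genes were matched to RefSeq (GRCh38.p14): 13081 regions by a current symbol, 617 by an older one and 300 not at all. Windows of 250 bases before RefSeq starts took the place of windows at region centres, since no genome sequence was used here. The text names, by rule, the 10 largest and 5 smallest fold changes among calls, the 5 regions of highest level, genes with the most regions (3, since 19 tie after them), regions at the limits, and for each list its calls and the strongest region of up to 5 genes. Other list members, GPR4, OPA3, PDE4A, SSTR5, ADGRE2 and CCL20 were named after their values were seen. The members and lists were chosen with earlier results of these data known. Python 3.11.15, numpy 2.4.6, scipy 1.17.1, pandas 2.3.3 and matplotlib 3.10.9 were used, and centring was tested on simulated data. Some regions that this rule names are not reported here.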

Additional observations from a re-analysis of the deposited data

How the results depend on the processing

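The count of 80 called proximal regions depended on the threshold and on the rule. It was 12 at an adjusted p-value under 0.01, 48 with an absolute log2 fold change of at least 1, 27 when p-values were adjusted over all distinct regions and 6 after centring on the median of tested regions. The share of all regions called was 0.351%, 0.876%, 0.274% and 0.124% under the same settings. The third share is of all 91107 distinct regions and the others are of the 36436 tested ones. The count was 40 for distances up to 5000 bases, 139 up to 20000 and 52 for widths under 4000, which leaves out the 574 widest regions, and 77 for regions listed with 1 gene. These limits change the size of the set, and the background for such counts is 1.67% of all tested regions. Without regions that hold a RefSeq start, a choice made after seeing the data, it was 65 and the median fold change 0.32. The median of 0.34 was 0.26 with no filter on level, 0.36 at a level of at least 50 and 0.35 up to 5000 bases, and the positive share of 83.2% was 70.0% and 91.5% with the first 2 of these. The difference from start regions, -0.10, was -0.19 with no filter. The cause was not tested. Of the 17 calls named by rule, centring lost 12 (ACSL5, BCAN, FMNL1, LHX6, LYRM1, MDM4, MNX1, MYPOP, PTPRU, SLC6A6, TMEM59L and UNC13A). Adjustment over all distinct regions lost 9 of these, all but ACSL5, MYPOP and UNC13A. Of the other calls named in the text, centring kept CCL20 and lost those of GPR4, PDE4A, SSTR5, ADGRE2, LRFN1, FAM126A and NTN4. Among these, adjustment over all distinct regions lost SSTR5, ADGRE2, LRFN1, FAM126A, the GPR4 region at 8830 bases and the PDE4A region at 99 bases. No paired analysis was possible because the table holds no values of single libraries, and leaving out each library and sequence features of region centres were not run. Depth per library is unknown. Proximal regions below a level of 18.45, most of the set, carry no adjusted p-value.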

Other observations

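Proximal regions were unevenly spread over chromosomes. On chromosome 19 they made up 31.6% of all regions, and on chromosome 13 8.59%. Chromosome 19 held 14 of the called proximal regions in the authors' deposited table, 3.89% of those tested there, beside 2.54% of all tested regions on the chromosome. Its proximal regions with a level of at least 10 had a median log2 fold change of 0.46 and all its regions one of 0.42. No proximal region was called by the authors' DESeq2 comparison on chromosomes 13, 14, 18, 21 and X, where 64, 91, 47, 28 and 73 were tested. Of all tested regions on these chromosomes 1.22%, 0.904%, 0.490%, 0.292% and 0.880% were called.

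Regions close to a start mostly stood beside a gene with no region over the start the authors used. Some of them held another RefSeq start of the gene, as at KDM5B, at a distance of 586 bases. Of the 1359 proximal regions within 1000 bases of a start, 1309 stood beside a gene with no start region, and 401 proximal regions lay 1 to 99 bases from a start. The called chemokine region of CCL20 (chromosome 2, 227815173 to 227821726) had 1.23 ± 0.23 at a level of 117 and a distance of -1332 bases in the authors' deposited table.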
